A study of Mus musculus with 18 samples.

Results

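The measurement described here is a difference between differences: how far the change on T cell receptor and CD28 stimulation in CD4 T cells that carry a Gli2 activator transgene (Gli2A Tg) departed from the same change in wild-type (WT) cells. It used 12 of the 18 Affymetrix arrays of the study, assigned to groups by their titles. There were 3 arrays in each of 4 groups: resting WT, stimulated WT, resting Gli2A Tg and stimulated Gli2A Tg. The remaining 6 arrays hold resting and stimulated cells with a second transgene, Gli2R Tg. They entered the normalization, the choice of probe set for each gene and the estimate of the spread. Their response was also compared with those of Gli2A Tg and WT cells. All cells were splenic CD4 T cells, purified on magnetic beads, from mice of the C57BL/6 background aged 9 to 15 weeks. Resting cells were taken fresh and stimulated cells had received antibodies to CD3 and CD28 for 6 h. No array here holds cells cultured for 6 h without antibody, so the stimulation change includes that of the culture. The labels do not name the promoter that drives either transgene, and they do not state whether replicates came from separate mice. The p-values thus measure the spread between these samples, which may be technical in part.

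Gli2 is one of the zinc finger transcription factors at the end of the Hedgehog pathway. Hedgehog ligands bind the receptor Patched, encoded by Ptch1, which releases the signal transducer Smoothened and lets Gli proteins act as activators; without ligand, Gli2 and Gli3 can be processed to repressors. In T cells, binding of the receptor complex together with CD28 starts calcium, MAP kinase and NF-kB signalling, and within hours the cells induce cytokines such as interleukin 2 and lose much of the gene programme of resting lymphocytes.

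The arrays carry 45101 probe sets, and 34945 of these match a single gene symbol. The brightest of them for each gene gave 18193 genes, each measured as log2(intensity + 16) after quantile normalization, so that small changes near the bottom of the scale are understated. Array medians ran from 55.5 to 76.3 in deposited intensity units. Replicate 3 of resting Gli2A Tg and replicate 2 of stimulated Gli2A Tg stood apart from their groups on principal components 2 and 3, and the latter also had the highest ratio of beta-actin 3′ to 5′ signal, 3 against at most 1.82 elsewhere. A male pattern of sex-linked genes was found in 2 of 3 resting WT arrays, 1 of 3 stimulated WT arrays and 0 of 3 arrays in each Gli2A Tg group. The WT replicates of each state thus did not all come from the same mouse, and for Gli2A Tg these genes do not tell. The 9 measured CD4 T cell markers averaged 12.41 to 13.04 in the resting and 11.91 to 12.18 in the stimulated WT and Gli2A Tg arrays on the log2 scale. Myeloid markers averaged 10.40 to 11.13 in resting WT, 10.94 to 11.21 in resting Gli2A Tg, 6.16 to 6.56 in stimulated WT and 6.30 to 7.31 in stimulated Gli2A Tg arrays. In such bulk samples fewer cells of a type and less RNA per cell cannot be told apart.

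Both genotypes responded to stimulation in a large part of the genes measured, and few genes passed the test of the difference between the responses. A gene that did not pass is not shown to have responded alike. Of 18193 genes, 7584 (41.7%) changed on stimulation in WT and 7812 (42.9%) in Gli2A Tg cells. The test of the difference between the 2 responses called 2 genes (0.011%) at a Benjamini-Hochberg adjusted p under 0.05 in limma, both with the lower response in Gli2A Tg cells, and 0 genes with the higher response. At an unadjusted p under 0.05 there were 1845 genes (10.1%), of which 888 (4.88%) had the higher and 957 (5.26%) the lower response in Gli2A Tg cells. The median difference over all genes was 0.00 and its median standard error (SE) 0.38 on the log2 scale. The count of called genes lay between 1 and 14 when single arrays were left out: it was 14 without replicate 1 of resting Gli2A Tg, 8 without replicate 3 of resting WT, and 1 without either replicate 2 of resting WT or replicate 3 of stimulated Gli2A Tg.

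**Figure D1:**
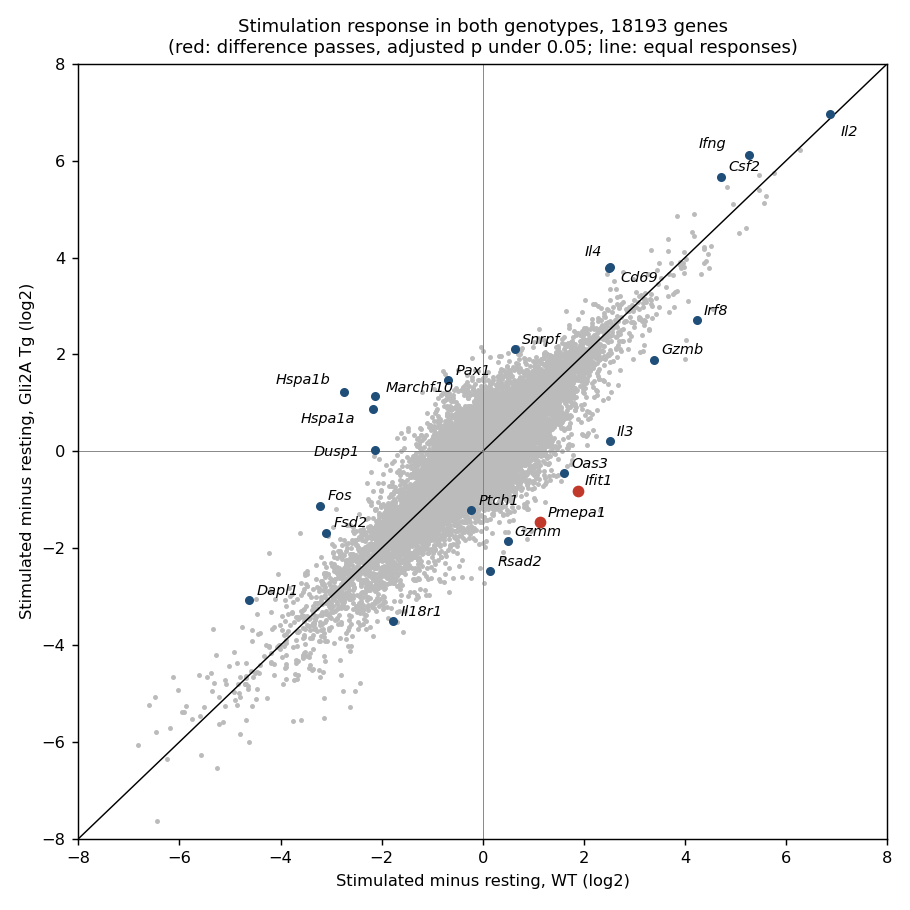
Each grey point is 1 of 18193 genes, with its change on 6 h of stimulation (log2, mean of stimulated minus mean of resting arrays, 3 arrays a group) in WT cells on the horizontal axis and in Gli2A Tg cells on the vertical axis, and the line marks equal responses. The 2 genes whose responses differed past the threshold, Pmepa1 and Ifit1, are red and lie at the lower right. There a gene rose on stimulation in WT cells and fell on stimulation in Gli2A Tg cells.

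Pmepa1, which encodes a membrane protein that restrains TGF-beta signalling by holding receptor-activated Smad proteins, moved in opposite directions in the 2 genotypes. Its log2 level was 7.35, 7.90 and 7.96 in the resting WT arrays and 8.75, 8.96 and 8.90 in the stimulated ones. In Gli2A Tg cells it was 11.06, 10.79 and 10.49 at rest and 9.27, 9.39 and 9.28 after stimulation. Resting and stimulated arrays did not overlap within either genotype, and the highest values of all were those of resting Gli2A Tg cells. Pmepa1 thus rose by 1.13 in WT and fell by 1.47 in Gli2A Tg cells on the log2 scale. The difference in response was -2.60 ± 0.30 (SE; limma adjusted p = 0.00634; 95% confidence interval -3.24 to -1.97), a response 6.07-fold lower in Gli2A Tg cells.

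Seen by genotype, Pmepa1 was 3.04 higher in Gli2A Tg than in WT cells at rest (adjusted p = 4.27e-06) and differed by 0.44 after stimulation (adjusted p = 0.443), although all 3 stimulated Gli2A Tg arrays still lay above the 3 stimulated WT arrays. These values come from the same 12 arrays as the difference in response and do not add to it. The 3 probe sets of Pmepa1 gave differences of -2.60, -2.15 and -2.05, and with each probe set of the array tested on its own the adjusted p was 0.00996, 0.0319 and 0.185. Pmepa1 was called under each of 28 other settings of normalization, filtering, model and arrays, with differences from -2.78 to -2.27 and adjusted p between 0.000194 and 0.0382.

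Ifit1, an antiviral protein that binds foreign RNA and is induced by type I interferon, was the second gene called. Its log2 level was 8.99, 9.28 and 9.32 in resting WT and 11.40, 11.45 and 10.40 in stimulated WT arrays. In Gli2A Tg cells it was 10.84, 10.39 and 10.95 at rest and 10.14, 9.71 and 9.88 after stimulation. Resting Gli2A Tg arrays were all above resting WT arrays, and stimulated Gli2A Tg arrays were all below stimulated WT arrays, so the order of the genotypes was turned around. Ifit1 rose by 1.88 in WT and fell by 0.81 in Gli2A Tg cells, and the difference in response was -2.70 ± 0.35 (SE; limma adjusted p = 0.0167; 95% interval -3.45 to -1.94).

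The call on Ifit1 held under 23 of the 28 other settings, and its difference ranged from -3.04 to -2.49. It was lost when replicate 2 of resting WT (adjusted p = 0.0595) or replicate 3 of stimulated Gli2A Tg (0.0773) was left out, when both Gli2A Tg arrays that stood apart were left out (0.0937), when only the 12 arrays were fitted (0.0838), and with the beta-actin ratio as a covariate (0.052).

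**Figure D2:**
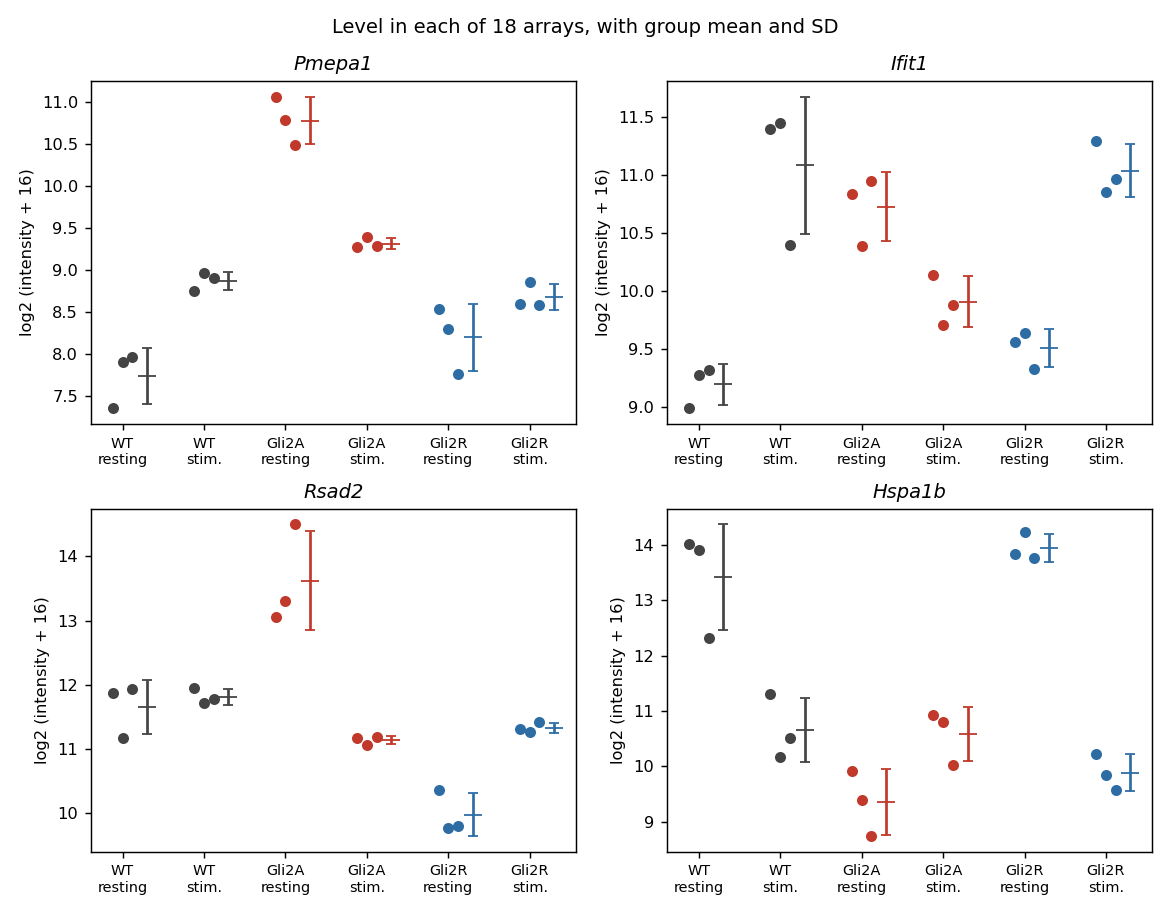
Level of 4 genes, log2(intensity + 16), in each of 18 arrays grouped by genotype and stimulation; dots are arrays, and the bar beside them is the group mean with its standard deviation (3 arrays). At rest, the Gli2A Tg arrays of Pmepa1, Ifit1 and Rsad2 all lay above the WT arrays, and those of Hspa1b all lay below them; the Gli2R Tg arrays are shown for side-by-side values.

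Rsad2, also called viperin, an interferon-induced enzyme that makes a chain-terminating nucleotide, had the same ordering as Ifit1 but did not pass. It stood at 11.87, 11.17 and 11.93 in resting WT, 11.95, 11.71 and 11.78 in stimulated WT, 13.06, 13.31 and 14.50 in resting Gli2A Tg, and 11.17, 11.07 and 11.19 in stimulated Gli2A Tg arrays. The resting Gli2A Tg arrays were above, and the stimulated Gli2A Tg arrays below, all WT arrays of the same state. Its change was 0.15 in WT and -2.48 in Gli2A Tg cells, a difference of -2.63 ± 0.43 (SE; limma adjusted p = 0.0736; 95% interval -3.54 to -1.72). The highest array, at 14.50, was the resting Gli2A Tg array that stood apart; without it Rsad2 passed, as it did without replicate 1 of that group, and 6 of 28 other settings called it in all. Its 3 probe sets gave -2.63, -2.53 and -2.36.

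Oas3, a synthetase of the 2-5A signal that activates RNase L, gave 7.61, 7.72 and 8.41 in resting WT against 9.27, 9.17 and 9.66 in resting Gli2A Tg arrays, and 9.73, 9.57 and 9.26 in stimulated WT against 9.20, 8.41 and 9.14 in stimulated Gli2A Tg arrays. The genotypes did not overlap in either state. Its difference in response was -2.05 ± 0.36 (SE; adjusted p = 0.0736). Ifit3, a partner of Ifit1, had a difference of -1.74 ± 0.41 (adjusted p = 0.163), and its stimulated groups overlapped.

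Genes induced by interferon commonly share a promoter element that is bound by interferon regulatory factors and the ISGF3 complex. The 250 bases before the start of Ifit1, Rsad2, Oas3 and Ifit3 are printed because these are the called interferon gene and the 3 others of its list with the largest differences in response. Sequences are from RefSeq on build GRCm38.p6, 5′ to 3′ on the strand of the gene, with each match to the interferon response element (GAAA, any 2 bases, then GAAA, on either strand) in capitals. They lie at chr19:34640639-34640888 (plus strand), chr12:26456453-26456702 (minus), chr5:120777660-120777909 (minus) and chr19:34583279-34583528 (plus).
Ifit1: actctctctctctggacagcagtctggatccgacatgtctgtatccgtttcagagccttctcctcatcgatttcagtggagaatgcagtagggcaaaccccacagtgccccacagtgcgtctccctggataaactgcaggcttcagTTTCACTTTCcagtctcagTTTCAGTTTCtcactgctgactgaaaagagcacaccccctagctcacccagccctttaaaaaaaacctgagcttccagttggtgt
Rsad2: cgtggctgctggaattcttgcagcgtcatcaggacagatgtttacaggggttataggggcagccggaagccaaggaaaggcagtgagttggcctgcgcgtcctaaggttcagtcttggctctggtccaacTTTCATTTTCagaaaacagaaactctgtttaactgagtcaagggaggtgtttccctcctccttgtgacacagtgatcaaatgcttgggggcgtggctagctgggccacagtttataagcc
Oas3: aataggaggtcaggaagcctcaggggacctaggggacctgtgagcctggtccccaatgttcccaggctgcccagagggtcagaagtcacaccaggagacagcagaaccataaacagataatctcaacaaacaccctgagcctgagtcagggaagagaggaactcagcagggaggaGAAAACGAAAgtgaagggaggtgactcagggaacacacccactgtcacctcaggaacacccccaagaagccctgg
Ifit3: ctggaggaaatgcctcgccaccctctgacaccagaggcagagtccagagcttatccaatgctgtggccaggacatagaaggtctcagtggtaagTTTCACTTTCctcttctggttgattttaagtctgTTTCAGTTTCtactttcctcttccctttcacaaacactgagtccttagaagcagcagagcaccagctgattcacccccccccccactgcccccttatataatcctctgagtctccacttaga
The 2 matches of Ifit1 start 104 and 85 bases before the start of transcription, that of Rsad2 120 bases, that of Oas3 75 bases and those of Ifit3 156 and 122 bases before it. Over windows that run from 250 bases before to 50 after the start, 12 of the 26 windows of listed interferon genes (46.2%) held a match, against 3.44% of all 32851 windows; 21 of the 27 genes had a window. A match describes these letters and does not show that a factor was bound.

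The interferon response list as a whole leaned the same way. It held 30 genes, 27 of which were measured. Like the other lists it was chosen with earlier results of these data known, and it includes Ifit1, Rsad2, Oas3 and Ifit3. The shares below therefore describe the list and are no independent support for those genes. Ifit1 was the only member called (the share called among all genes was 0.011%). At an unadjusted p under 0.05 there were 15 of 27 (55.6%) with the lower response in Gli2A Tg cells and 0 with the higher, against 10.1% of all genes in either direction. The difference in response was below 0 in 26 of 27, against 50.2% of all genes, and the median was -0.84, from -2.70 (Ifit1) to 0.02 (Ifi35), against 0.00 for all genes. The median change on stimulation was 0.81 in WT and -0.34 in Gli2A Tg cells.

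The resting level and the stimulated level both entered that pattern. Averaged over the 27 genes, arrays stood at 9.58, 9.66 and 9.72 in resting WT and at 10.08, 10.15 and 10.36 in resting Gli2A Tg cells. After stimulation they stood at 10.38, 10.61 and 10.62 in WT and at 9.97, 10.07 and 10.28 in Gli2A Tg cells. The genotypes did not overlap in either state, and they changed places. At rest 24 of 27 genes were higher on average in Gli2A Tg cells (51.8% of all genes were), with 4 called (0.55% of all genes were called), and after stimulation 24 of 27 were lower (48.7% of all genes), with 0 called (0.137%). Resting Gli2A Tg arrays were all above resting WT arrays in 16 of 27 genes (8.86% of all genes), and stimulated Gli2A Tg arrays all below stimulated WT arrays in 12 of 27 (8.65%). Both held for 8 genes, Ifit1, Rsad2, Oas3, Usp18, Irf7, Cxcl10, Xaf1 and Rtp4, against 0.726% of all genes.

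**Figure D3:**
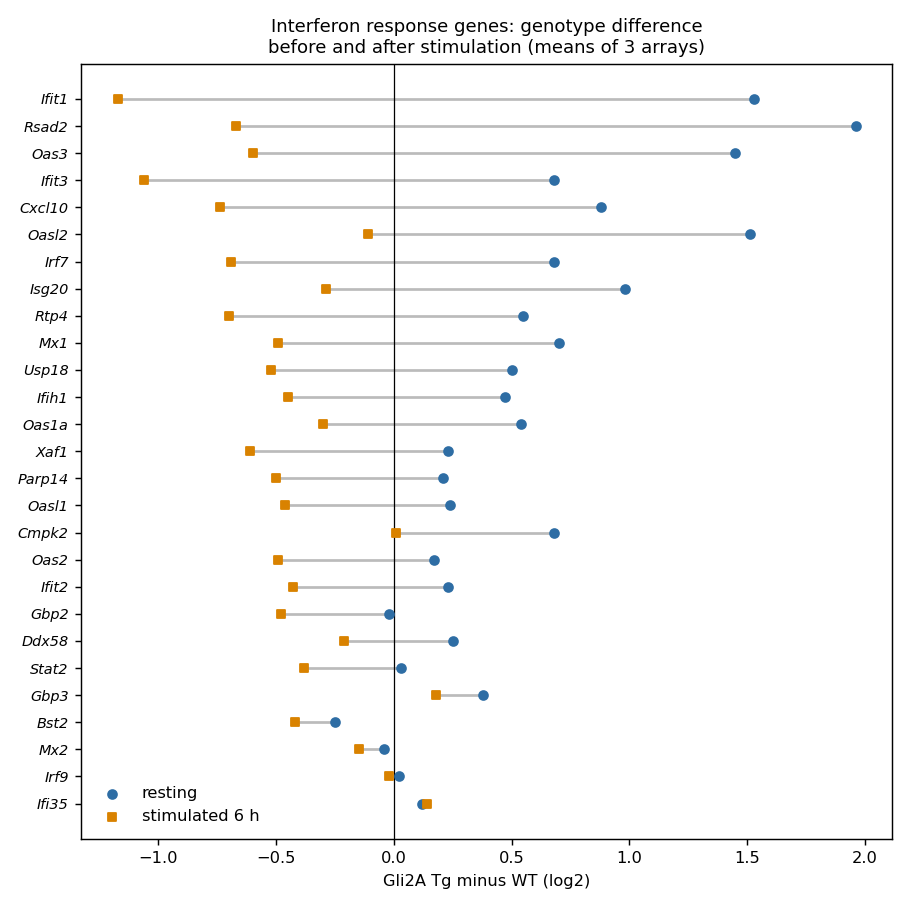
Gli2A Tg minus WT level (log2, difference of means of 3 arrays) for the 27 measured interferon response genes, at rest (circles) and after 6 h of stimulation (squares), ordered by the difference in response. In 21 genes the circle lies above 0 and the square below it, a pattern that 24.8% of all genes had.

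Further members are named here after their values were seen. Irf7, the transcription factor that amplifies type I interferon, had a difference in response of -1.37 ± 0.25 (adjusted p = 0.0736), and Rtp4, an interferon-induced receptor transporter, -1.25 ± 0.23 (0.0736). Oasl2 gave -1.61 ± 0.31 (0.0919), and Cxcl10, a chemokine for CXCR3-bearing cells, -1.62 ± 0.35 (0.132). Cxcl10 was induced in both genotypes, by 4.56 in WT and 2.94 in Gli2A Tg cells. These genes are commonly induced together, so they are not independent replicates of the pattern. Without both Gli2A Tg arrays that stood apart, 15 of 27 genes were lower at an unadjusted p under 0.05 (9% of all genes in either direction) and the median was -0.76. With the sex-linked marker level as a covariate the count was 16 and the median -0.90, and with the beta-actin ratio 14 and -0.78.

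Type 1 helper genes came next among the lists of T cell genes. None of 17 measured was called, but 9 (52.9%) had the lower response in Gli2A Tg cells at an unadjusted p under 0.05 and 0 the higher. Among all genes 10.1% lay under that p in either direction. The difference was below 0 in 14 of the 17, against 50.2% of all genes, with a median of -0.82. Gzmb, the protease granzyme B of cytotoxic granules, stood at 8.47, 8.16 and 7.76 in resting WT and 11.22, 11.55 and 11.74 in stimulated WT arrays, against 8.45, 8.68 and 8.75 and then 10.63, 10.62 and 10.29 in Gli2A Tg arrays. It rose in both genotypes, by 3.38 in WT and 1.89 in Gli2A Tg cells, with a difference of -1.49 ± 0.29 (adjusted p = 0.0941). Il18r1, a chain of the interleukin 18 receptor, fell by 1.77 in WT cells and fell by 3.51 in Gli2A Tg cells (difference -1.75 ± 0.35, adjusted p = 0.103), from a resting level 1.40 higher in Gli2A Tg cells (adjusted p = 0.0199). The Gli2R Tg arrays are given side by side. Averaged over the list, resting arrays stood at 8.22 to 8.56 in WT, 8.64 to 8.71 in Gli2A Tg and 8.79 to 9.03 in Gli2R Tg, and stimulated arrays at 9.71 to 9.85, 9.16 to 9.53 and 9.28 to 9.51. The Gli2R Tg response minus that of WT was -0.94 for Gzmb and -0.91 for Il18r1, a comparison that shares the WT arrays.

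Ifng, the defining type 1 cytokine, did not share that direction. It stood at 8.87, 8.27 and 6.98 in resting WT, 13.22, 13.31 and 13.38 in stimulated WT, 6.07, 6.51 and 7.25 in resting Gli2A Tg, and 13.02, 12.23 and 12.97 in stimulated Gli2A Tg arrays. The resting groups overlapped, and the stimulated Gli2A Tg arrays were all below the stimulated WT arrays. Its induction was 5.26 in WT and 6.12 in Gli2A Tg cells, a difference of 0.86 ± 0.67 (adjusted p = 0.714; 95% interval -0.57 to 2.29). The interval spans 0 and does not show that the responses were alike.

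Effector and memory genes gave 0 called of 21, and 8 (38.1%) with the lower response at an unadjusted p under 0.05, against 5.26% of all genes. Their median was -0.50. The count was 5 without replicate 2 of either resting or stimulated Gli2A Tg. List averages at rest were 10.88 to 11.09 in WT, 11.21 to 11.32 in Gli2A Tg and 11.22 to 11.42 in Gli2R Tg. After stimulation they were 9.31 to 9.55, 9.13 to 9.25 and 9.19 to 9.29. The arrays of both transgenes thus lay on the same side of WT in each state. Gzmm, granzyme M, had the largest difference of the list. It was at 6.48, 6.39 and 6.14 in resting WT and 8.99, 8.44 and 9.33 in resting Gli2A Tg arrays, and after stimulation at 6.68, 6.65 and 7.15 in WT and 7.27, 6.61 and 7.31 in Gli2A Tg arrays. The genotypes were apart at rest and overlapped after stimulation, with a difference in response of -2.34 ± 0.48 (adjusted p = 0.111). S100a4, a calcium-binding protein of memory cells, gave -1.20 ± 0.33 (adjusted p = 0.227). Of 11 measured CD8 T and natural killer cell markers, 4 were lower and 1 higher at an unadjusted p under 0.05. That was 45.5%, against 10.1% of all genes, with a median of -0.07. Leaving out single arrays gave 1 to 3 lower, 0 to 2 higher and medians from -0.52 to -0.01. Their average was 8.42 to 8.62 in resting WT, 8.50 to 8.73 in resting Gli2A Tg, 7.84 to 8.36 in stimulated WT and 7.74 to 8.10 in stimulated Gli2A Tg arrays. Their part in the granzyme and interleukin 18 receptor values was not tested.

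Genes of naive and quiescent T cells were the list with the highest median among the T cell lists, at 0.32. Of these, 17 of 20 were above 0, against 9054 of all 18193 genes. None was called, 4 had the higher and 1 the lower response at an unadjusted p under 0.05 (25%, against 10.1% of all genes). Dapl1, a gene of naive T cells, fell by 4.62 in WT cells and fell by 3.07 in Gli2A Tg cells, a difference of 1.56 ± 0.39 (adjusted p = 0.184), from a resting level 3.46 lower in Gli2A Tg cells (adjusted p = 1.3e-05). Tsc22d3, the glucocorticoid-induced leucine zipper protein, gave 1.45 ± 0.48 (adjusted p = 0.324), and Ccr7, the lymph node homing receptor, 0.82 ± 0.32 (adjusted p = 0.400). Replicate 3 of resting Gli2A Tg, which stood apart, was the lowest array of its group for both (9.46 and 11.82), and without it they gave 0.93 and 0.48. The mean of its probe sets gave 0.59 for Tsc22d3. The list median was 0.14 without that array and 0.16 without replicate 3 of stimulated WT.

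**Figure D4:**
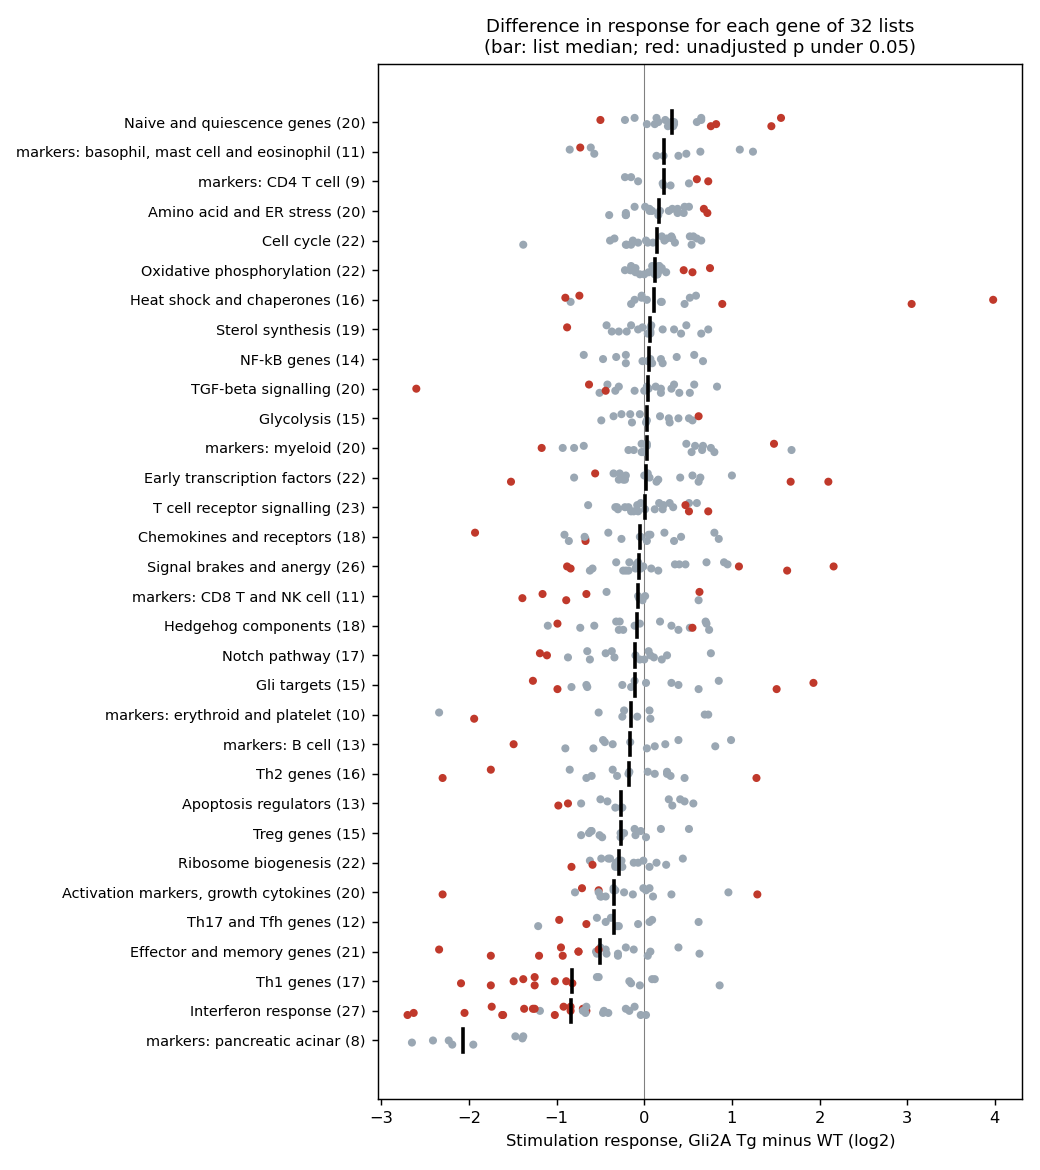
Difference in response (Gli2A Tg minus WT, log2) for each measured gene of 32 lists, ordered by list median (black bar), with the number of genes in brackets and genes at an unadjusted p under 0.05 in red. The interferon response, type 1 helper and effector lists lie to the left of 0, and pancreatic acinar markers lie farthest left without a red point.

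Among genes with the higher response in Gli2A Tg cells none passed, and the lowest p belonged to Hspa1b, an inducible heat shock protein of the Hsp70 family. It stood at 14.02, 13.91 and 12.31 in resting WT and 9.92, 9.40 and 8.74 in resting Gli2A Tg arrays. After stimulation it was 11.30, 10.16 and 10.51 in WT and 10.93, 10.80 and 10.02 in Gli2A Tg arrays. The genotypes were far apart at rest and overlapped after stimulation. Hspa1b fell by 2.75 in WT and rose by 1.23 in Gli2A Tg cells, and the difference was 3.98 ± 0.62 (SE; limma adjusted p = 0.0606; 95% interval 2.66 to 5.31). Its 3 probe sets gave 3.98, 4.44 and 4.58.

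Hspa1b passed under 8 of 28 other settings, among them the fits without replicate 3 of resting WT, replicate 1 of resting Gli2A Tg or replicate 1 of stimulated WT. Its near-identical neighbour Hspa1a, which probes may not tell apart from it, gave 3.05 ± 0.78 (adjusted p = 0.207). Of the 16 genes of the heat shock list, 3 had the higher and 2 the lower response at an unadjusted p under 0.05. That was 31.2%, against 10.1% of all genes, and the median was 0.11. Without replicate 3 of resting WT the counts were 6 and 1. Cryab, a small heat shock protein, gave -0.90 ± 0.37 (adjusted p = 0.436; -0.35 as the mean of its probe sets), and Hspa4l, a further Hsp70 relative named after its value was seen, 0.89 ± 0.37 (adjusted p = 0.433).

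Several early response genes that were bright in resting WT arrays had like values. Fos, an AP-1 subunit, stood at 14.40, 14.46 and 13.75 in resting WT and 13.78, 11.36 and 11.46 in resting Gli2A Tg arrays, and at 10.67 to 11.29 in all stimulated arrays of both genotypes. Replicate 1 of resting Gli2A Tg lay with the WT arrays, and without it Fos passed (adjusted p = 0.00916). With all arrays its difference was 2.10 ± 0.66 (adjusted p = 0.288). Dusp1, a phosphatase that switches off MAP kinases, gave 2.16 ± 0.71 (adjusted p = 0.321), with the same array nearest to WT, and passed without it (adjusted p = 0.0317). Junb, another AP-1 subunit, gave 1.67 ± 0.69 (adjusted p = 0.437). Of 22 early transcription factors, 2 had the higher and 2 the lower response at an unadjusted p under 0.05. That was 18.2%, against 10.1% of all genes, with a median of 0.02.

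Irf8, an interferon regulatory factor induced by the T cell receptor, went the other way. Its level was 10.42, 9.55 and 10.10 in resting WT, 14.20, 14.29 and 14.26 in stimulated WT, 10.81, 10.97 and 11.34 in resting Gli2A Tg, and 13.82, 13.89 and 13.50 in stimulated Gli2A Tg arrays. The genotypes did not overlap in either state. It rose by 4.23 in WT and by 2.70 in Gli2A Tg cells, with a difference of -1.52 ± 0.28 (adjusted p = 0.0760) and -0.86 ± 0.33 in a second probe set.

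The other genes with the lowest p-values gave smaller or less certain differences. Snrpf, a core protein of the spliceosome, rose in both genotypes, by 0.64 in WT and by 2.11 in Gli2A Tg cells (difference 1.47 ± 0.26, adjusted p = 0.0736). Fnbp4 rose by 1.42 in WT cells and stood 0.10 higher after stimulation in Gli2A Tg cells (adjusted p = 0.650), a difference of -1.31 ± 0.23 (adjusted p = 0.0736). Tada2a, an adaptor of histone acetyltransferase complexes, rose by 1.89 and 0.66 (difference -1.23 ± 0.21, adjusted p = 0.0736). Fsd2 gave 1.43 ± 0.26 (adjusted p = 0.0736). Marchf10 gave 3.28 ± 0.58 (adjusted p = 0.0736), but 0.02 in its second probe set, and Pax1 gave 2.16 ± 0.40 (adjusted p = 0.0760), but -0.13 in its second probe set. The Gli2R Tg response also departed from that of WT, by 1.40 for Fsd2, 2.64 for Marchf10, 0.89 for Snrpf and -0.96 for Fnbp4. For Tada2a it departed by -0.11 and for Pax1 by 0.53. None of these was called, and they share the WT arrays.

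Il2, Csf2 and Cd69, all induced strongly in both genotypes, did not pass the test of the difference. Il2, the T cell growth factor, stood at 6.41, 6.44 and 6.51 in resting WT and 13.28, 13.14 and 13.54 in stimulated WT, against 6.81, 6.43 and 5.92 and then 13.54, 13.45 and 13.06 in Gli2A Tg arrays. The genotypes overlapped in both states. Its induction was 6.87 in WT and 6.96 in Gli2A Tg cells, with a difference of 0.10 ± 0.31 (adjusted p = 0.951; 95% interval -0.56 to 0.76), so that a difference beyond about 0.76 lies outside the interval. Csf2, which encodes GM-CSF, gave 0.96 (95% interval -0.17 to 2.08), and Cd69, an early activation marker, 1.29 (0.30 to 2.28, adjusted p = 0.365).

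Il4, the type 2 cytokine, was at 6.60, 7.09 and 7.06 in resting WT and 8.14, 7.93 and 7.69 in resting Gli2A Tg arrays. After stimulation it was at 9.10, 9.17 and 10.04 in WT and 11.54, 12.33 and 11.28 in Gli2A Tg arrays. Gli2A Tg arrays were above WT arrays in both states. Il4 was higher by 2.28 in stimulated Gli2A Tg cells (adjusted p = 0.0262), while the difference in response was 1.28 ± 0.52 (adjusted p = 0.430; 95% interval 0.16 to 2.40). Il3 and Il13, further cytokine genes of the type 2 list that lay near the bottom of the scale at rest, gave -2.30 ± 0.70 (adjusted p = 0.273) and -1.75 ± 0.69 (0.414). Il3 gave -4.15 with a pseudocount of 1 and -1.16 with one of 64, and Il13 gave -0.99 without both Gli2A Tg arrays that stood apart. The type 2 list had 1 higher and 2 lower of 16 at an unadjusted p under 0.05 (18.8%, against 10.1% of all genes). Its median was -0.17.

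Hedgehog pathway genes gave 0 called of 18, with 1 higher and 1 lower at an unadjusted p under 0.05 (11.1%, near the 10.1% of all genes) and a median of -0.08, whose sign turned in 7 of 28 settings. Ptch1, both receptor and target of the pathway, was far higher in Gli2A Tg cells in both states. It stood at 10.24, 10.44 and 10.44 in resting WT and 10.24, 9.95 and 10.25 in stimulated WT, against 13.59, 13.60 and 13.28 and then 12.05, 12.27 and 12.48 in Gli2A Tg arrays. Gli2A Tg arrays were above all WT arrays, and within Gli2A Tg cells Ptch1 fell by 1.22 on stimulation (adjusted p = 1.13e-05), with no change detected in WT (-0.23, adjusted p = 0.267). The difference in response was -0.99 ± 0.22 (adjusted p = 0.139; 95% interval -1.46 to -0.52), called under 2 of 28 other settings. Gli1, a transcriptional target in many tissues, lay between 5.56 and 6.53 in the 12 arrays and gave 0.39 (adjusted p = 0.818). Gli2 gave -1.10 and 1.12 in its 2 probe sets, both near the bottom of the scale.

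Of 15 measured genes known as Gli targets in other tissues, Ptch1 among them, 2 had the higher and 2 the lower response at an unadjusted p under 0.05. That was 26.7%, against 10.1% of all genes. Prdm1, which encodes Blimp-1, fell by 1.36 in Gli2A Tg cells against -0.09 in WT (difference -1.27 ± 0.32, adjusted p = 0.197), and Pdgfra, a growth factor receptor, gave 1.93 ± 0.50 (adjusted p = 0.221), from 0.85 to 3.62 with the pseudocount. Both genes moved in the same direction in Gli2R Tg as in Gli2A Tg arrays. In resting Gli2R Tg arrays Prdm1 stood at 8.45, 8.51 and 7.82, and in stimulated ones at 7.12, 7.30 and 6.45. Pdgfra stood there at 4.35, 4.58 and 4.56 and then at 5.42, 5.81 and 5.86. The TGF-beta list, which holds Pmepa1, did not follow it. Of its 20 genes, Pmepa1 was called, and 3 were lower and 0 higher at an unadjusted p under 0.05. That was 15%, against 10.1% of all genes, and the median was 0.04. Smad3, a receptor-activated Smad, gave -0.63 ± 0.17 (adjusted p = 0.237) in its brightest probe set and 0.54 in the mean of its probe sets.

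Activation markers and growth cytokines gave 1 higher and 3 lower of 20 (20%), with 14 below 0 and a median of -0.34, which was -0.20 without replicate 2 of stimulated Gli2A Tg and -0.21 without replicate 1 of resting WT. Averaged over that list, stimulated Gli2A Tg arrays (11.35 to 11.63) lay below stimulated WT arrays (11.66 to 11.80). So did stimulated Gli2R Tg arrays (11.25 to 11.62). T cell receptor signalling genes gave 3 higher and 0 lower of 23 (13%). The 26 genes of signal brakes and anergy gave 3 higher and 2 lower (19.2%) with a median of -0.06. One of them, Cblb, a ubiquitin ligase that raises the activation threshold, gave 1.63 ± 0.45 (adjusted p = 0.232) but -0.20 and -0.18 in its other 2 probe sets. Ribosome biogenesis genes were below 0 in 18 of 22, against 50.2% of all genes, with 2 lower (9.09%) and a median of -0.29. That median was -0.12 without replicate 3 of resting Gli2A Tg and -0.05 without both Gli2A Tg arrays that stood apart. Ncl, which encodes nucleolin, gave -0.83 ± 0.37 (adjusted p = 0.478), and -0.47 without replicate 2 of stimulated Gli2A Tg, the array with the high beta-actin ratio. Oxidative phosphorylation genes gave 3 higher of 22 (13.6%), among them Cycs, cytochrome c, at 0.75 ± 0.19 (adjusted p = 0.205), or 0.26 with median centring. Regulatory T cell, NF-kB and cell cycle lists had 0 genes at an unadjusted p under 0.05. The share of all genes to set beside each list of this paragraph was 10.1% in either direction.

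Myeloid markers had a median difference of 0.03. Of 20 measured, 1 was higher and 1 lower at an unadjusted p under 0.05 (10%, near the 10.1% of all genes). The median was -0.16 for B cell markers and -0.15 for erythroid and platelet markers. With the myeloid marker level as a covariate, Pmepa1 gave -2.56 (adjusted p = 0.0157) and Ifit1 -2.66 (adjusted p = 0.0402). With the sex-linked marker level they gave -2.53 (0.0252) and -2.78 (0.0316). All 8 measured pancreatic acinar markers were below 0 (50.2% of all genes were), with a median of -2.07 and 0 at an unadjusted p under 0.05. Their average was 6.74 to 8.91 in resting WT, 8.69 to 11.61 in resting Gli2A Tg, 5.56 to 6.55 in stimulated WT and 5.50 to 6.01 in stimulated Gli2A Tg arrays. Their part in the other values was not tested.

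Set beside the Gli2R Tg arrays, the Gli2A Tg response differed in more genes. The test of the Gli2A Tg against the Gli2R Tg response called 20 genes (0.11%), 6 higher (0.033%) and 14 lower (0.077%), and that of Gli2R Tg against WT called 0 in limma, with 1574 (8.65%) at an unadjusted p under 0.05. These comparisons share the Gli2A Tg or WT arrays with the one above, so they are no independent support for it. Markers of other cells differed between the resting groups of both transgenes: erythroid and platelet markers averaged 7.65 to 8.28 in Gli2R Tg against 9.46 to 9.88 in Gli2A Tg arrays, and myeloid markers 9.88 to 10.10 against 10.94 to 11.21. With the erythroid marker level as a covariate 6 genes were called. Against Gli2R Tg, Pmepa1 gave -1.95 (adjusted p = 0.0186) and Ifit1 -2.34 (0.0186), Rsad2 -3.83 (0.00438) and Hspa1b 5.29 (0.00438). Hspa1a gave 4.83 (0.0284), Il4 3.40 (0.0190) and Csf2 3.07 (0.0397). For the Gli2R Tg response against WT, the same genes gave -0.65 for Pmepa1, -0.36 for Ifit1, 1.20 for Rsad2 and -1.31 for Hspa1b, none of which passed. Hspa1a gave -1.77, Il4 -2.12 and Csf2 -2.11 there, also without passing. For Il4 and Csf2 these are larger in size than the Gli2A Tg differences against WT, 1.28 and 0.96. Pmepa1 was at 8.53, 8.30 and 7.76 in resting and 8.60, 8.86 and 8.58 in stimulated Gli2R Tg arrays, and Ifit1 at 9.56, 9.64 and 9.33 and then 11.29, 10.85 and 10.97. For Ifit1 the stimulated Gli2R Tg arrays lay within the range of the stimulated WT arrays, and the resting ones just above the resting WT arrays.

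**Figure D5:**
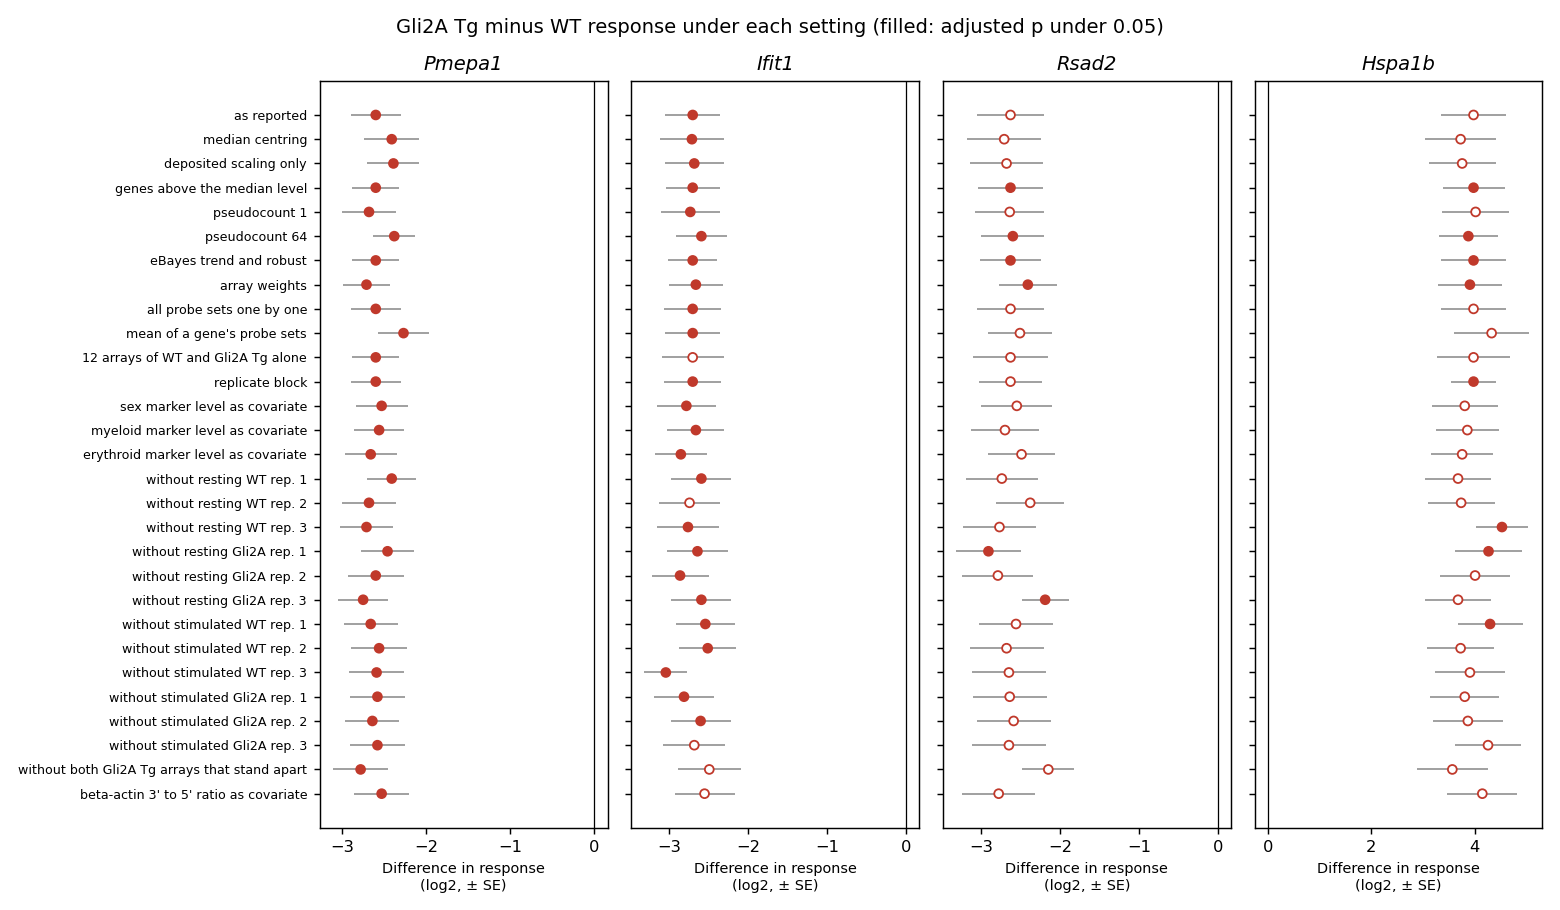
Difference in response (Gli2A Tg minus WT, log2, with its standard error) of Pmepa1, Ifit1, Rsad2 and Hspa1b as reported (top) and under 28 other settings, filled where the adjusted p was under 0.05. Each gene kept its direction under every setting shown, Pmepa1 was filled in each, and Ifit1, Rsad2 and Hspa1b were filled in 23, 6 and 8 of the 28.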

How the data were processed

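Intensities of 45101 probe sets were deposited by the authors as 1 value table, linear and scaled so that the trimmed mean of each of the 18 arrays is 500; the submitters' processing notes name affy, with no version, and the sources used here do not give the background method. From these values log2(intensity + 16) was taken after quantile normalization. Probe sets were named through the platform annotation, leaving out 932 with several symbols and 9160 with none, and the brightest probe set of each gene was kept. Group means of all 6 groups were fitted in limma 3.58.1 (R 4.3.3) with moderated variances, and p-values were adjusted by Benjamini-Hochberg over 18193 genes. The fit was tested on simulated data with known differences and independent noise. That checks the calculation alone: the simulated arrays had no outlying members, so it does not bear on the calls above. With 3 arrays a group, the number of arrays limits the precision. The genes named are the called ones, the 5 lowest p-values in a direction, up to 3 further members of each list by size of difference, and Gli1, Gli2, Ptch1, Il2, Ifng and Il4; others are marked as chosen after their values were seen or come from the marker lists. The comparison, its members and the 33 lists were chosen with earlier results of these data known. Other settings were 26 planned and 2 added after seeing the data.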

Additional observations from a re-analysis of the deposited data

Results flagged for a closer look

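The stimulation response differed between Gli2A Tg and WT cells, by the test of the difference itself, for 2 genes, Pmepa1 at -2.60 and Ifit1 at -2.70 on the log2 scale. Between Gli2A Tg and Gli2R Tg cells it differed for 20 genes. Among the genes described above these were Hspa1b at 5.29, Hspa1a at 4.83, Il4 at 3.40, Csf2 at 3.07, Pmepa1 at -1.95, Ifit1 at -2.34 and Rsad2 at -3.83. Both comparisons use the same Gli2A Tg arrays. For Il4 and Csf2 the Gli2R Tg response departed further from WT (-2.12 and -2.11) than the Gli2A Tg response did (1.28 and 0.96). Groups of 3 arrays are too small for a test of single outlying arrays, so none was made.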

How the results depend on the processing

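Pmepa1 and Ifit1 kept their direction under all 28 settings, while 11 of the 143 genes followed, none of them called, had the other sign in at least 1 setting, among them Smad3 (-0.76 to 0.54) and Nop58 (-1.01 to 0.21). The count of genes called for Gli2A Tg against WT (2, of which 0 higher and 2 lower) moved with the treatment of dim genes and of the variance: it was 45 (9 higher, 36 lower) over genes above the median level alone, 38 (4 higher, 34 lower) with a pseudocount of 64, 34 (8 higher, 26 lower) with a variance trend and robust moderation, 7 (1 higher, 6 lower) with array weights, 6 (2 higher, 4 lower) with each probe set on its own, and 4 (0 higher, 4 lower) with median centring. Interferon response genes made up 7 of the 45, 6 of the 38 and 7 of the 34. They were 2 of the 7 with array weights, 1 of the 6 by probe set and 2 of the 4 with median centring. The list held 27 of the 18193 genes tested, and 24 of the 9096 above the median level. Leaving out single arrays gave 1 to 14 called, 0 to 7 higher and 1 to 7 lower. The same replicate numbers showed no strong pairing of the samples (18 pairs, correlations of deviations from -0.0224 to 0.103, 1 over 0.1). Resting against stimulated arrays of the same genotype gave 0.0134 to 0.0557. Low correlations do not show that samples were unpaired. With the replicate block 3 genes were called in limma, 1 higher (Hspa1b, adjusted p = 0.00987) and 2 lower. For Gli2A Tg against Gli2R Tg (20 called) the counts were 128 over genes above the median level, 78 with a pseudocount of 64, 101 with trend and robust moderation, 34 with array weights, 35 by probe set, 13 with the sex-linked and 6 with the erythroid marker level as covariates, 10 with the beta-actin ratio, 7 without both Gli2A Tg arrays that stood apart, and 6 to 34 without single arrays. Ifit1 lost its call under 5 settings, as given above; the cause was not tested. The median SE of 0.38 and groups of 3 arrays limit what could be called: the smaller of the called differences was 2.60 in size.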
